A study of Homo sapiens with 12 samples.

Results

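Tandem repeats that cause inherited disease when they lengthen lie in the genes described here, and the question was how the transcripts of those genes responded when SUPT4H1 was knocked down. The genes were 33 symbols named in advance, and each matched 1 row of the deposited table, which holds 57704 human genes. By the usual location of the repeat, 13 carry it in coding sequence, 8 in an untranslated region (UTR), 10 in an intron and 2 elsewhere (the promoter of CSTB and an alternatively spliced exon of JPH3). No expression value entered the choice, although the list was drawn up with earlier results from these data known. All libraries came from 1 HEK293 line, a human embryonic kidney cell line, that stably carried the intron-DARP-EGFP reporter, described in the labels as endogenous intronic sequence plus DARP, so the control cells carried it too. The 6 treated libraries received a pool of siRNAs against SUPT4H1 and the 6 controls received scrambled siRNA, each at 100 nM. RNA was taken 72 hours after transfection from 1000000 cells per library. ERCC external RNA standards went into each lysate as mix1 in the scrambled group and mix2 in the SUPT4H1 group. The transfections were separate but started from 1 culture, so p-values measure the spread between transfections of that culture and not between cell lines.

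SUPT4H1 encodes SPT4, the small partner of SPT5 in DSIF, the complex that rides with RNA polymerase II and helps it to elongate through chromatin and difficult sequence. Repeat expansions act in several ways: a long CAG run in coding sequence yields a glutamine tract, a long GCN run yields an alanine tract, and a long run in a UTR or an intron can silence the gene or give rise to RNA that binds splicing factors. Earlier work tied SPT4 to the transcription of expanded CAG repeats in HTT and of the expanded GGGGCC repeat in C9orf72. The length of each repeat in these HEK293 cells was not measured here.

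The repeats themselves show why these genes form a set, and the start of 10 of them is printed below from the reference, including those of the genes that changed most and of HTT and C9orf72. Runs of at least 5 uninterrupted units, with GCN standing for any alanine codon, were found in annotated transcripts (GENCODE, GRCh38) of 21 of the 22 genes searched, XYLT1 being the one without. The C9orf72 repeat came from the RefSeq promoter window (GRCh38.p14). Each sequence reads 5′ to 3′ on the strand of the gene, with repeat units in capitals and the bases beside them in lower case. All but that of C9orf72 stop inside the repeat, and the lengths are those of the reference.
HTT: aagtccttcCAGCAGCAGCAGCAGCAGCAG
ATXN1: catcagcatCAGCAGCAGCAGCAGCAGCAG
PABPN1: gcggcgatgGCGGCGGCGGCGGCGGCGGCA
SOX3: cctcccggtGCCGCGGCCGCCGCCGCCGCT
RUNX2: cagcaggagGCGGCGGCGGCGGCTGCGGCG
FMR1: gcggcagcgCGGCGGCGGCGGCGGCGGCGG
GIPC1: cggaggcagCGGCGGCGGCGGCGGCGGCGG
AFF2: gcagccgctGCCGCCGCCGCCGCCGCCGCC
DMPK: ccgggaatgCTGCTGCTGCTGCTGCTGCTG
C9orf72: cgcgcgctaGGGGCCGGGGCCGGGGCCggg

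In the reference, the HTT run holds 19 CAG units at chr4:3074877-3074933 on the plus strand, in coding sequence, and lies 13222 bases from the 3′ end of transcript HTT-201. ATXN1 has 14 CAG units at chr6:16327636-16327677 on the minus strand, also coding. PABPN1 has 10 GCN units at chr14:23321473-23321502 on the plus strand, directly after the start codon of transcript PABPN1-202, and SOX3 has 15 at chrX:140504317-140504361 on the minus strand. RUNX2 has 17 GCN units at chr6:45422751-45422801 on the plus strand. The 5′ UTR runs are 10 CGG units of FMR1 (chrX:147912051-147912080, plus strand), 11 CGG units of GIPC1 (chr19:14496042-14496074, minus strand) and 15 GCC units of AFF2 (chrX:148500638-148500682, plus strand). DMPK carries 20 CTG units in its 3′ UTR (chr19:45770205-45770264, minus strand), 485 bases before the 3′ end. C9orf72 has 3 GGGGCC units at chr9:27573529-27573546 on the minus strand, in an intron of 5 of its 8 annotated transcripts and in an exon of none. The motif GGGGCCGGGGCCGGGGCC, on either strand, occurred in 10 of 35116 promoter windows of the same length (0.0285%). The libraries tag the 3′ ends of polyadenylated RNA, so counts report how much transcript of each gene was present and say nothing of the length of these runs.

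Library size differed between the groups: 7337033 to 20269171 counts per scrambled library and 6591194 to 11366971 per SUPT4H1 library. The targeted gene fell in every treated library, from 184 ± 9.11 counts per 1000000 counts (CPM, SD, n = 6) to 20.8 ± 1.63 CPM (SD, n = 6), an 8.84-fold drop (adjusted p = 2.65e-17, edgeR). The reporter row, labelled GFP, fell from 102 ± 11.4 to 57.3 ± 14.1 CPM (SD, n = 6 each), a relative log2 ratio of -0.82 (SE 0.13, adjusted p = 6.30e-05, edgeR). All 8 HEK293 markers were detected, at summed levels of 1860 to 2373 CPM in scrambled and 1602 to 1719 CPM in SUPT4H1 libraries. NEFL made up most of both sums, at 1434.5 and 934 CPM on average. NEFL and KRT18 fell, while VIM and CDH2 rose. PAX2 and NEFM were low, at 1.59 and 1.55 CPM on average in the scrambled group. The 20 markers of leukocytes, endothelium, fibroblasts, hepatocytes and mature neurons summed to 36.4 to 60.1 and 28.9 to 49.1 CPM. SYT1 made up most of that, at 33.0 and 24.1 CPM on average, and PTPRC and CDH5 had no count in any library. CD68 rose from 1.10 to 1.89 CPM and COL3A1 from 1.28 to 2.23 CPM, the only 2 of the 20 that passed the test. The part of these markers in the results was not tested. RNA integrity numbers were 9.9 to 10 in the scrambled group and 9.6 to 10 in the SUPT4H1 group. Replicate 6 of the SUPT4H1 group stood apart from the rest of its group on the second principal component, at 35.1 against -18.1 to -3.99, so results that rest on it are also given without it.

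As a share of all messenger RNA, most of the repeat genes moved little after the knockdown. Of the 33 genes, 27 had enough counts to be tested, and 5 of them rose (PABPN1, SOX3, GIPC1, RFC1 and AFF2) and 4 fell (ATXN1, RUNX2, YEATS2 and CNBP) at an adjusted p under 0.05 in edgeR's quasi-likelihood test. The 9 called are 33.3% of those tested, against 40.2% of the 13820 genes tested in all, where 20% rose and 20.2% fell. The log2 ratio of SUPT4H1 to scrambled siRNA in relative abundance had a median of 0.09 for the repeat genes and 0.00 for all genes, with 17 repeat genes above 0 and 10 below. The median of the repeat genes was 0.03 without SUPT4H1 replicate 6, 0.15 without scrambled replicate 3 and 0.05 under limma-voom. Only for SOX3 did the SUPT4H1 and scrambled libraries not overlap in CPM, 1 gene of 27, while 20.4% of all genes tested had groups that did not overlap. Calls held for ATXN1, SOX3, GIPC1, CNBP and YEATS2 under each of the 19 alternatives run on relative abundance. Those of RUNX2, AFF2 and RFC1 were lost in 11, 10 and 11 of them, and the call of PABPN1 in 1. The count that rose was 2 with RNA integrity as a covariate, 3 with the replicate number as a block and 3 without scrambled replicate 3 or 6 or without SUPT4H1 replicate 5.

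**Figure D1:**
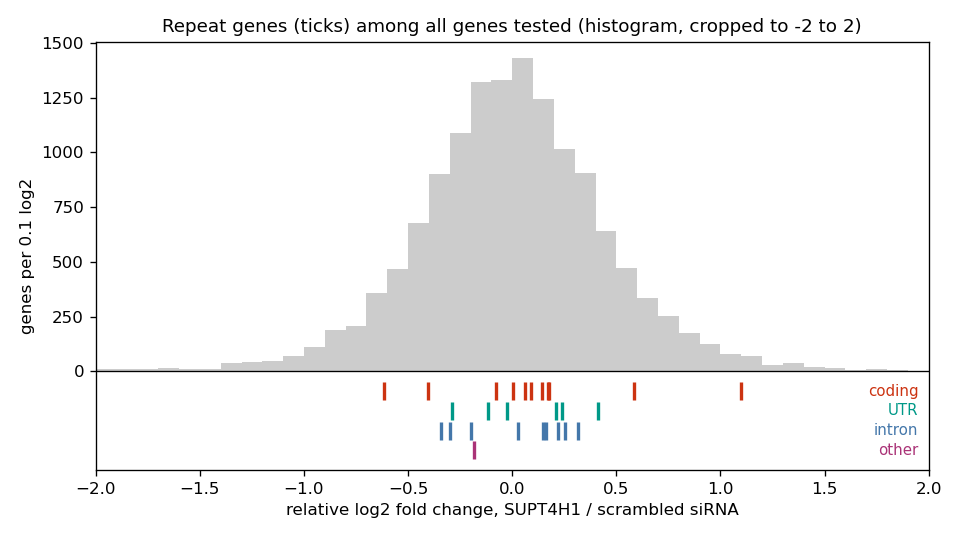
Histogram of the relative log2 ratio (SUPT4H1 siRNA over scrambled siRNA, horizontal axis) of all 13820 genes tested, in genes per 0.1 log2 unit (vertical axis), with each of the 27 tested repeat genes as a tick coloured by repeat location. The ticks run from -0.61 (ATXN1) to 1.10 (PABPN1), and most lie in the middle of the histogram.

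Among the 8 genes with a coding CAG repeat, only ATXN1 was called in relative abundance with all libraries. Of the 7 tested, 0 rose and 1 fell, a called share of 14.3%. Among all genes tested the called share was 40.2%, with 20% higher and 20.2% lower. The median log2 ratio of the 7 was 0.06. None of the 7 rose at an unadjusted p under 0.05 in edgeR or at an adjusted p under 0.05 in DESeq2 or limma-voom either. Without SUPT4H1 replicate 6, however, ATXN2 was called as higher, at 0.18 (adjusted p = 0.0427, edgeR). ATXN1, a chromatin-associated repressor and the gene of spinocerebellar ataxia type 1, ran from 16.9 to 21.5 CPM with a median of 18.6 in the scrambled libraries, and from 7.97 to 19.9 CPM with a median of 10.9 after SUPT4H1 siRNA. In 5 of the 6 treated libraries it lay below every scrambled library, and replicate 6, the highest at 19.9 CPM, lay within the scrambled range. The relative log2 ratio of ATXN1 was -0.61 (SE 0.16, adjusted p = 0.00397, edgeR), a 1.53-fold drop, and without replicate 6 it was -0.77 (adjusted p = 2.25e-05, edgeR). HTT, which encodes huntingtin, a scaffold of vesicle transport, ran from 30.6 to 43.2 CPM (median 37.1) in the scrambled and from 35.9 to 45.4 CPM (median 37.7) in the SUPT4H1 libraries. The HTT groups overlapped over most of their range, and the relative log2 ratio was 0.06 (SE 0.10, adjusted p = 0.651, edgeR). For HTT the 12 fits that each left out 1 library gave values between 0.0037 and 0.11.

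The other glutamine genes lay close to their scrambled levels. ATXN3, a deubiquitinase, had 24.0 to 27.6 CPM (median 25.2) in scrambled and 20.6 to 27.0 CPM (median 24.9) in SUPT4H1 libraries, a relative log2 ratio of -0.08. ATXN7, a subunit of the SAGA histone acetyltransferase complex, had 21.6 to 29.5 CPM (median 24.7) and 19.8 to 30.6 CPM (median 25.0), with group means of 24.8 CPM in both. For both genes the groups overlapped, and exons of ATXN7 overlap those of AC104162.2 and of a second gene of the same name on its own strand. TBP, the TATA-box-binding protein, ran from 15.6 to 24.1 CPM (median 17.5) in scrambled and from 17.0 to 26.0 CPM (median 18.9) in SUPT4H1 libraries, a relative log2 ratio of 0.09. The RNA-binding gene ATXN2 went from 75.9 ± 4.07 to 83.7 ± 7.90 CPM (SD, n = 6 each), a relative log2 ratio of 0.14 (adjusted p = 0.142, edgeR). Without SUPT4H1 replicate 6, ATXN2 passed the test, at 0.18 (adjusted p = 0.0427, edgeR). ATXN2 shares exon sequence with genes on the opposite strand, SH2B3 among them, and whether the counting used strand is not given in the sources used here. ATN1, a transcriptional corepressor, had 13.6 ± 1.79 and 15.6 ± 7.06 CPM (SD, n = 6 each), a relative log2 ratio of 0.17 that turned to -0.08 without SUPT4H1 replicate 6. CACNA1A, a neuronal calcium channel subunit, had 61 counts over all libraries and was not tested.

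The alanine repeat genes held both larger increases among the coding group. Of the 4 tested, PABPN1 and SOX3 rose, RUNX2 fell and ZIC2 did not pass the test. The called share was 75%, of only 4 genes, against 40.2% of all genes tested. No test between alanine and glutamine genes was run. PABPN1, the nuclear poly(A)-binding protein and the gene of oculopharyngeal muscular dystrophy (chr14:23321289-23326185, GRCh38, plus strand), ran from 24.6 to 45.2 CPM with a median of 29.9 in the scrambled libraries and from 44.8 to 152 CPM with a median of 55.0 in the SUPT4H1 libraries. The groups touched only at 1 library of each: scrambled replicate 2 at 45.2 CPM and SUPT4H1 replicate 3 at 44.8 CPM. The highest value, 152 CPM, came from SUPT4H1 replicate 6, and the other 5 treated libraries reached at most 56.7 CPM. PABPN1 had a relative log2 ratio of 1.10 (SE 0.32, adjusted p = 0.0183, edgeR), a 2.14-fold rise, and 212 of the genes tested had a higher value. Without replicate 6 it was 0.71 (SE 0.13, adjusted p = 0.000208, edgeR), and with RNA integrity as a covariate the adjusted p was 0.0818 (edgeR), the highest of its alternatives. The exons of PABPN1 overlap those of the readthrough gene BCL2L2-PABPN1 on the same strand, whose row held 0 counts, so reads of the 2 cannot be told apart where they overlap.

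SOX3, an HMG-box transcription factor of pituitary and brain development (chrX:140502985-140505116, GRCh38, minus strand), ran from 10.3 to 16.8 CPM with a median of 13.9 in the scrambled libraries and from 17.4 to 26.6 CPM with a median of 19.6 after SUPT4H1 siRNA. Every treated library was above every scrambled one. Its relative log2 ratio was 0.58 (SE 0.13, adjusted p = 0.00132, edgeR), and 0.52 without replicate 6. RUNX2, the master transcription factor of bone formation, went the other way, from 7.17 to 10.0 CPM (median 8.34) in scrambled to 4.68 to 8.33 CPM (median 5.80) in SUPT4H1 libraries. The RUNX2 groups overlapped, the relative log2 ratio was -0.40 (SE 0.15, adjusted p = 0.0385, edgeR), and the call was lost without any 1 of 8 libraries (scrambled replicates 1, 3, 4 or 5, or SUPT4H1 replicates 1, 4, 5 or 6). ZIC2, a zinc-finger factor of forebrain development, had 56.9 ± 3.60 and 64.1 ± 6.39 CPM (SD, n = 6 each), a relative log2 ratio of 0.17 (adjusted p = 0.0889, edgeR). Without replicate 6, ZIC2 passed the test, at 0.20 (adjusted p = 0.0457, edgeR). FOXL2, the transcription factor of the ovary, had 0 counts in all libraries.

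**Figure D2:**
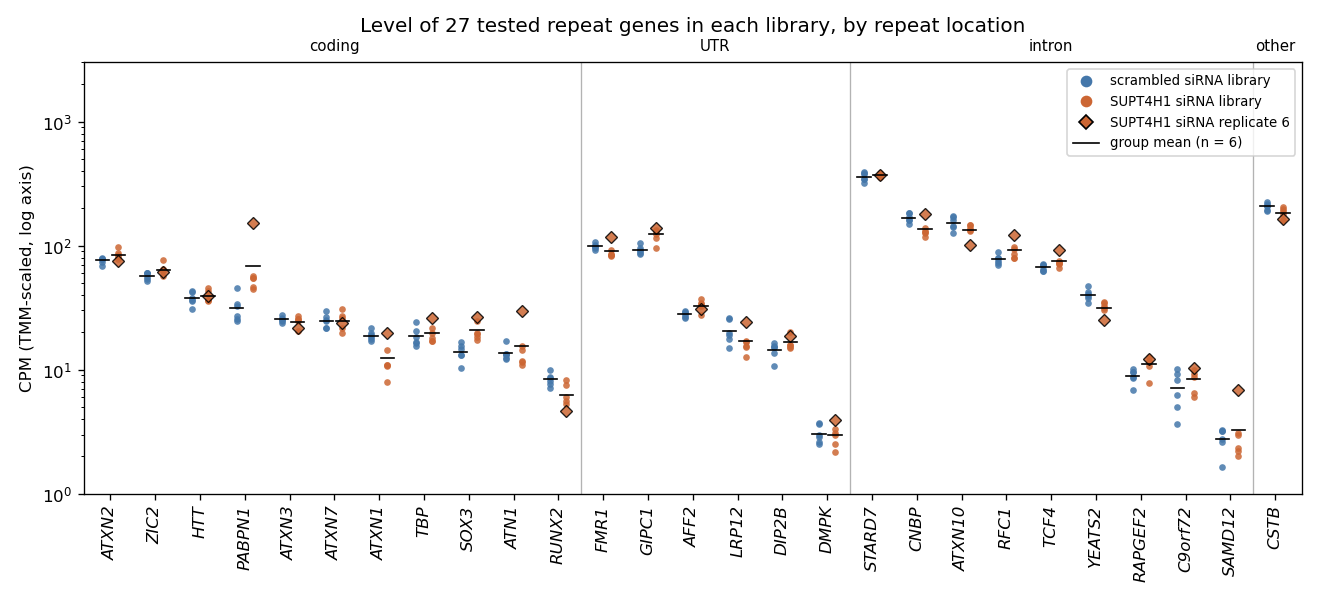
Level of each of the 27 tested repeat genes in every library, in CPM on a log axis (vertical), grouped along the horizontal axis by repeat location; points are libraries, diamonds mark SUPT4H1 siRNA replicate 6 and bars are group means (n = 6). Levels run from 2.78 CPM (SAMD12) to 361 CPM (STARD7) in the scrambled group, and for PABPN1, ATN1 and SAMD12 the diamond lies well above the other treated libraries.

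Among genes with a UTR repeat, 6 of 8 were tested, and GIPC1 and AFF2 rose while none fell, nor at an unadjusted p under 0.05 in edgeR or in DESeq2 or limma-voom. Without SUPT4H1 replicate 6, FMR1 and LRP12 were called lower, as given below. GIPC1, a PDZ-domain adaptor of receptor trafficking whose CGG repeat causes oculopharyngodistal myopathy, ran from 86.2 to 105 CPM (median 91.1) in scrambled and from 95.0 to 139 CPM (median 127) in SUPT4H1 libraries. In 5 of the 6 treated libraries it was above all scrambled ones, and SUPT4H1 replicate 2, at 95.0 CPM, lay within their range. The relative log2 ratio of GIPC1 was 0.41 (SE 0.09, adjusted p = 0.000845, edgeR), a 1.33-fold rise. AFF2, a nuclear protein of the AF4/FMR2 family silenced in FRAXE intellectual disability, ran from 26.3 to 29.5 CPM (median 27.9) and from 27.6 to 37.4 CPM (median 33.1). Its groups overlapped at the low end, and the relative log2 ratio was 0.24 (SE 0.09, adjusted p = 0.0369, edgeR). The AFF2 call was lost without any 1 of 7 libraries (scrambled replicates 2, 3 or 6, or SUPT4H1 replicates 1, 2, 3 or 5).

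FMR1, the RNA-binding protein lost in fragile X syndrome, ran from 91.7 to 108 CPM (median 98.2) in scrambled and from 82.8 to 118 CPM (median 85.1) in SUPT4H1 libraries. Replicate 6 was the highest of all libraries for FMR1, while the other 5 treated libraries reached at most 91.9 CPM. Its relative log2 ratio was -0.12 (adjusted p = 0.287, edgeR) and, without replicate 6, -0.19 (adjusted p = 0.0218, edgeR). LRP12, a receptor of the LDL receptor family, behaved alike in that respect, running from 15.0 to 25.9 CPM (median 19.4) and from 12.6 to 24.4 CPM (median 16.2), with replicate 6 the highest treated library. The LRP12 value was -0.29 (adjusted p = 0.135, edgeR) with all libraries and -0.41 (adjusted p = 0.0158, edgeR) without replicate 6. DMPK, the kinase of myotonic dystrophy type 1 and the only gene with a 3′ UTR repeat, had 2.50 to 3.73 CPM (median 2.93) and 2.15 to 3.95 CPM (median 3.02). At this level the groups of DMPK overlapped throughout, with a relative log2 ratio of -0.03 (SE 0.20, adjusted p = 0.931, edgeR). Exons of DMPK overlap those of DM1-AS and AC074212.1 on the opposite strand and of AC011530.1 on its own, so reads of these genes may not be told apart from its own. DIP2B, linked to a folate-sensitive fragile site, had 14.5 ± 2.09 and 16.7 ± 2.10 CPM (SD, n = 6 each), a relative log2 ratio of 0.21 (adjusted p = 0.178, edgeR). PPP2R2B, a regulatory subunit of protein phosphatase 2A, and XYLT1, a xylosyltransferase of proteoglycan synthesis, had 112 and 72 counts in total and were not tested.

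The genes with an intronic repeat included 2 that fell, CNBP and YEATS2, and 1 that rose, RFC1, among the 9 tested. CNBP, a nucleic-acid-binding zinc-finger protein whose CCTG repeat causes myotonic dystrophy type 2, ran from 150 to 185 CPM (median 166) in scrambled and from 118 to 178 CPM (median 130) in SUPT4H1 libraries. In 5 of the 6 treated libraries CNBP was below every scrambled library, and replicate 6 was again the exception at 178 CPM. The relative log2 ratio was -0.30 (SE 0.09, adjusted p = 0.0117, edgeR), and -0.37 without replicate 6. YEATS2, a histone reader of the ATAC acetyltransferase complex, ran from 34.5 to 47.1 CPM (median 39.8) and from 25.3 to 35.1 CPM (median 32.0). The YEATS2 groups overlapped only narrowly, with a relative log2 ratio of -0.34 (SE 0.10, adjusted p = 0.00704, edgeR). RFC1, the large subunit of the clamp loader of DNA replication, ran from 70.0 to 88.6 CPM (median 77.3) and from 79.1 to 123 CPM (median 89.7). Its highest value came from replicate 6, the relative log2 ratio was 0.26 (SE 0.10, adjusted p = 0.0418, edgeR), and without that library it was 0.17 (adjusted p = 0.0717, edgeR). The RFC1 call was also lost without any 1 of 7 other libraries (scrambled replicates 1, 3, 4, 5 or 6, or SUPT4H1 replicates 4 or 5).

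C9orf72, a regulator of autophagy and lysosomes and the gene of a familial form of amyotrophic lateral sclerosis and frontotemporal dementia, was a low and variable transcript here. It ran from 3.66 to 10.2 CPM (median 7.22) in scrambled and from 5.97 to 10.2 CPM (median 9.03) in SUPT4H1 libraries, on 37 to 189 and 56 to 113 counts per library. The SUPT4H1 range lay inside the scrambled one apart from its top value, and the relative log2 ratio was 0.22 (SE 0.21, adjusted p = 0.440, edgeR). ATXN10 ran from 127 to 173 CPM (median 152) and from 101 to 147 CPM (median 137), a relative log2 ratio of -0.20 (adjusted p = 0.102, edgeR). TCF4, a basic helix-loop-helix factor whose CTG repeat is tied to Fuchs corneal dystrophy, had 66.8 ± 4.07 and 74.8 ± 8.70 CPM (SD, n = 6 each), a value of 0.16 (adjusted p = 0.119, edgeR). TCF4 and ATXN10 did not pass the test, although ATXN10 did without scrambled replicate 2, at -0.25. Both share exon sequence with other genes, ATXN10 with Z84478.1 on the opposite strand and Z95331.1 on its own, and TCF4 with TCF4-AS2 and RPL21P126 on the opposite strand.

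Familial adult myoclonic epilepsy is caused by intronic TTTCA insertions in any of 4 of these genes, YEATS2, STARD7, RAPGEF2 and SAMD12, and they did not move together. YEATS2 fell, as given above. STARD7, a lipid transfer protein of mitochondria and the most abundant of the repeat genes, had 322 to 392 CPM (median 360) in scrambled and 356 to 383 CPM (median 367) in SUPT4H1 libraries. Its treated libraries lay within the scrambled range, with a relative log2 ratio of 0.03 (SE 0.07, adjusted p = 0.788, edgeR). RAPGEF2, an activator of the small GTPase Rap, had 8.89 ± 1.14 and 11.1 ± 1.73 CPM (SD, n = 6 each), a value of 0.32 (adjusted p = 0.0653, edgeR), and passed the test only without scrambled replicate 5 or SUPT4H1 replicate 3 and in DESeq2. SAMD12 was the lowest of the tested genes in the scrambled group, at 2.78 ± 0.63 CPM, and had 3.24 ± 1.83 CPM after SUPT4H1 siRNA (SD, n = 6 each). Its relative log2 ratio of 0.15 turned to -0.17 without replicate 6. STARD7 and YEATS2 share exon sequence with antisense genes, STARD7-AS1 at 2.30 and 2.01 CPM and YEATS2-AS1 at 0.28 and 0.82 CPM in the scrambled and SUPT4H1 means. BEAN1, the remaining intronic gene, had 43 counts in total and was not tested.

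CSTB, an inhibitor of lysosomal cathepsins whose promoter repeat causes progressive myoclonus epilepsy, ran from 190 to 226 CPM (median 210) in scrambled and from 162 to 204 CPM (median 185) in SUPT4H1 libraries. The groups overlapped, with a relative log2 ratio of -0.18 (SE 0.08, adjusted p = 0.0580, edgeR), and CSTB passed the test only without scrambled replicate 2 or SUPT4H1 replicate 4 and in DESeq2. JPH3, a junctophilin of neurons, had 72 counts in total and was not tested.

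By location, a few genes changed in each group, and both directions were seen for coding and intronic repeats. In coding sequence 2 rose and 2 fell of 11 tested, in UTRs 2 rose and 0 fell of 6, and in introns 1 rose and 2 fell of 9. The lack of a fall among UTR genes rested on SUPT4H1 replicate 6. Without it FMR1 (-0.19, adjusted p = 0.0218, edgeR) and LRP12 (-0.41, adjusted p = 0.0158, edgeR) were called lower. The called shares were 36.4%, 33.3% and 33.3%, beside 40.2% of all genes. Groups of 11, 6 and 9 genes are too small to set these shares apart from that of all genes. Median relative log2 ratios were 0.09, 0.09 and 0.15 for coding, UTR and intron. Without SUPT4H1 replicate 6 they were 0.03, 0.05 and 0.04. Under limma-voom they were 0.07, 0.10 and 0.03, so the order of the locations was not kept. The coding median was 0.15 without scrambled replicate 3, the UTR median was 0.15 without SUPT4H1 replicate 4 and 0.05 with RNA integrity as a covariate, and the intron median was 0.06 and 0.08 without scrambled replicates 4 and 6. Set library by library against the scrambled mean, the coding median lay between 0.00 and 0.12 over the 6 SUPT4H1 libraries and between -0.11 and 0.10 over the 6 scrambled libraries. The intron median lay between -0.16 and 0.45, with replicate 6 the highest, and the UTR median between -0.13 and 0.31, again with replicate 6 the highest. For each location these ranges overlapped those of the scrambled libraries, and no test between locations was run, since genes are not replicates.

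Scaled to the ERCC standards, which were added per fixed number of cells, most repeat genes were lower after the knockdown, along with most of the transcriptome. Only subgroup B of the standards, nominally equal in both mixes, set this scale, since mix and treatment coincide. The ratio of endogenous to subgroup B counts, on a log2 scale, was 9.16 ± 0.32 in the scrambled and 8.23 ± 0.57 in the SUPT4H1 libraries (SD, n = 6 each), a difference of -0.93. Fewer cells in a lysate and less RNA per cell cannot be told apart in such bulk samples. The median spike-in-scaled log2 fold change was -0.82 over all genes tested and -0.72 over the repeat genes. Of the 27 tested, 14 fell and 0 rose, against 59% of all genes that fell and 0.304% that rose. The count that rose was also 0 at an unadjusted p under 0.05 in edgeR and by DESeq2 and limma-voom.

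The 14 that fell were HTT, ATXN1, ATXN3, ATXN7, TBP and RUNX2 among coding repeats, FMR1, LRP12 and DMPK among UTR repeats, ATXN10, CNBP, STARD7 and YEATS2 among intronic repeats, and CSTB. ATXN1 was the lowest, at -1.42 (SE 0.33, adjusted p = 0.000306, edgeR), 37.3% of its scrambled abundance, and relative to the median shift of all genes it stood at -0.60. Per 1000 counts of the subgroup B standards, ATXN1 had 8.55 to 16.2 counts in scrambled and 1.53 to 6.71 in SUPT4H1 libraries, so its groups did not overlap on this scale. Nor did those of RUNX2, at 3.69 to 7.48 and 1.33 to 3.49. How many of all genes had groups that did not overlap on this scale was not counted, so whether this was unusual for ATXN1 or RUNX2 is not known. HTT had 16.1 to 31.0 and 8.73 to 22.8 counts per 1000, an overlapping pair of groups, with a spike-in-scaled log2 fold change of -0.78 (SE 0.32, adjusted p = 0.0302, edgeR). Relative to the median of all genes HTT stood at 0.04, and its call was lost in 11 of 20 alternatives, 8 of which each left out 1 library (scrambled replicates 1, 4 or 5, or SUPT4H1 replicates 1, 2, 3, 4 or 6). C9orf72 had 1.85 to 5.74 and 1.69 to 3.76 counts per 1000, a value of -0.64 (SE 0.34, adjusted p = 0.0916, edgeR), and passed the test only without SUPT4H1 replicate 5 and with RNA integrity as a covariate. Its value was 0.18 above the median of all genes.

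PABPN1 was the only tested repeat gene with a spike-in-scaled value above 0, at 0.29 (SE 0.32, adjusted p = 0.403, edgeR), which is 1.11 above the median of all genes. That sign rested on SUPT4H1 replicate 6: without it PABPN1 stood at -0.02 (adjusted p = 0.965, edgeR) and no tested repeat gene was above 0, and with RNA integrity as a covariate it stood at -0.34. SOX3 stood at -0.23 (adjusted p = 0.519, edgeR) and GIPC1 at -0.44 (adjusted p = 0.197, edgeR), 0.59 and 0.38 above that median. None of the 5 genes that rose in relative abundance (PABPN1, SOX3, GIPC1, RFC1 and AFF2) passed the test on the spike-in scale in either direction. GIPC1, RFC1 and AFF2 passed it as lower without SUPT4H1 replicate 5 and with RNA integrity as a covariate. RFC1 and AFF2 also did so under limma-voom, and SOX3 did so with that covariate. The count of 14 that fell dropped to 8 without scrambled replicate 4 and reached 25 without SUPT4H1 replicate 5, whose endogenous-to-standard ratio of 9.27 was the highest of its group. It was 3 with ERCC subgroup C as the scale, where the median of all genes was -0.51. ATXN1, RUNX2 and YEATS2 were called lower under each of the 20 spike-in alternatives run. The calls of TBP, DMPK and STARD7 were lost in 14, 13 and 9 of them: TBP without any 1 library but SUPT4H1 replicate 5, DMPK without any but that one and scrambled replicate 3, and STARD7 without scrambled replicates 1, 2 or 4 or SUPT4H1 replicates 1, 3, 4 or 6. Those of ATXN3 and ATXN7 were lost without scrambled replicate 4.

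**Figure D3:**
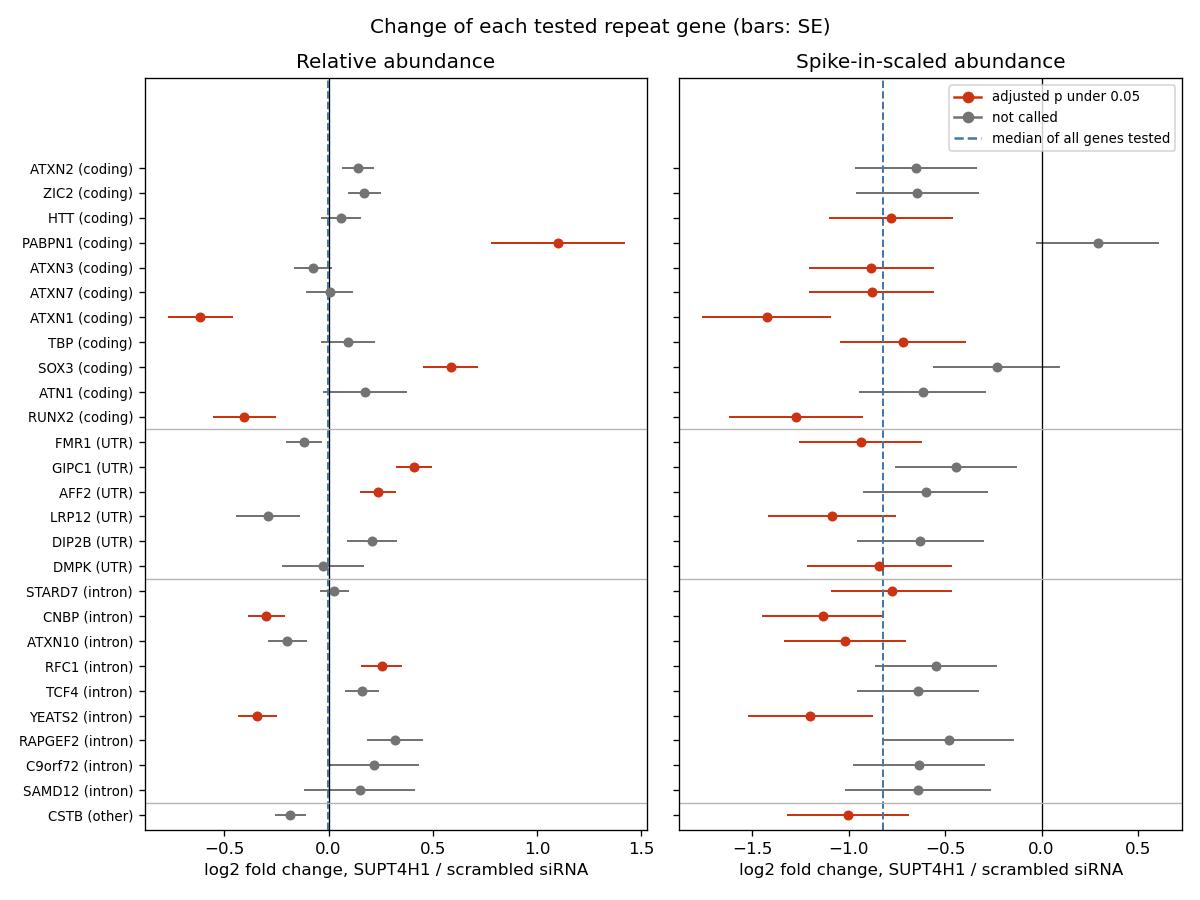
Log2 fold change (SUPT4H1 siRNA over scrambled siRNA, horizontal axes) of the 27 tested repeat genes, listed by repeat location, as relative abundance (left) and scaled to ERCC subgroup B (right); points are estimates, bars are 1 SE, and red marks an adjusted p under 0.05 in edgeR's quasi-likelihood test. The dashed lines mark the medians of all genes tested, 0.00 on the left and -0.82 on the right, and the repeat genes scatter around both.

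The spread among the treated libraries was larger than among the scrambled ones for most repeat genes only with SUPT4H1 replicate 6 included. With all libraries the coefficient of variation was larger in the SUPT4H1 group for 23 of the 27 tested genes, with a median of 15.5% against 11.7%. Without replicate 6 it was larger for 12 of 27 and smaller for 15, with a median of 10.9% against 11.7%, and for PABPN1 it was 10.8% against 24.2%. With all libraries it ran from 2.62% (STARD7) to 60.7% (PABPN1) in the SUPT4H1 group and from 5.11% to 35.8% in the scrambled group. Replicate 6 was the highest or lowest library of its group for 18 of the 27 genes, and the other treated libraries were so for 4 to 10 each. These spreads and counts were not taken over all genes tested. The second principal component, on which replicate 6 stood apart, was computed over all of those genes. Without replicate 6, 11 repeat genes were called, 40.7% of those tested against 42% of the 14043 genes then tested, and 7 of the 11 were also called with all libraries. ZIC2, FMR1, LRP12 and ATXN2 were gained, and RFC1 and RUNX2 were lost.

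**Figure D4:**
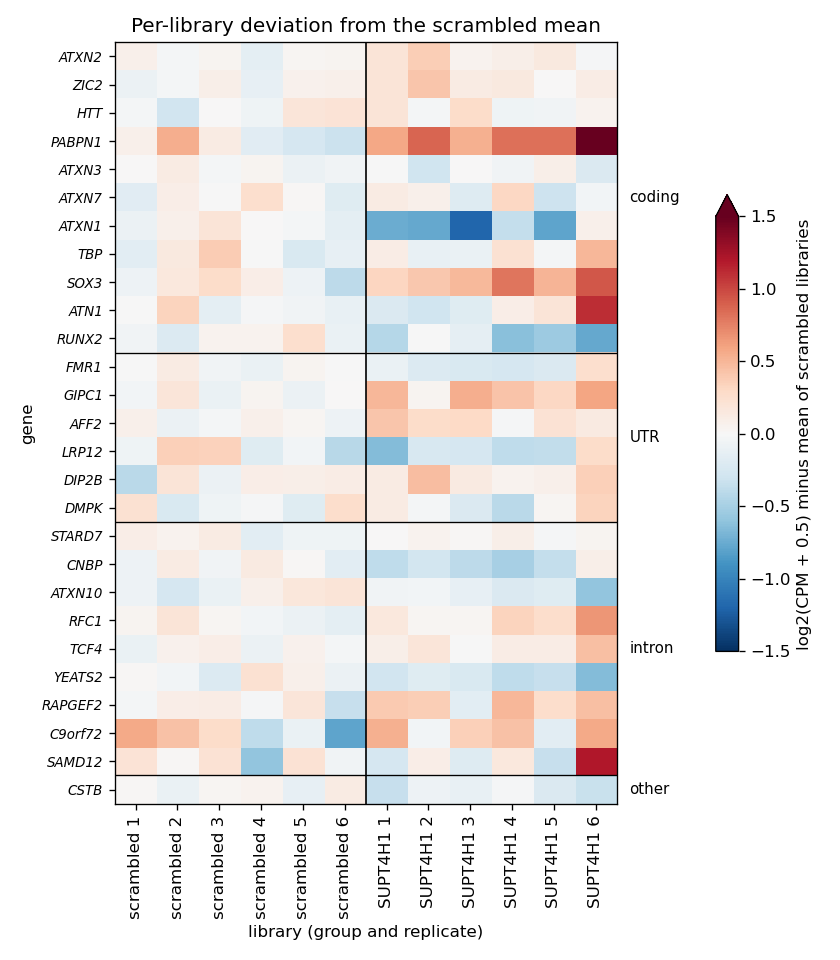
Heat map of log2(CPM + 0.5) minus the mean of the scrambled libraries for the 27 tested repeat genes (rows, by repeat location) in the 12 libraries (columns); red is above and blue below the scrambled mean, and the scale ends at 1.5 in either direction. PABPN1 and SOX3 are red across the SUPT4H1 columns, ATXN1 is blue in all of them but replicate 6, and the replicate 6 column stands out in ATN1, SAMD12 and PABPN1.

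Related genes give the surroundings of these changes, in relative abundance unless the spike-in scale is named. Of 43 paralogs, which share sequence families but not the disease repeats, 32 were tested, and 3 rose and 7 fell, so that 31.2% were called against 40.2% of all genes tested. Their median relative log2 ratio was -0.04. RUNX3 fell by 1.01 on the log2 scale (SE 0.12, adjusted p = 1.09e-06, edgeR), more than RUNX2, while RUNX1 did not pass the test at -0.34. ATXN7L3B rose by 0.70, STARD10 fell by 0.63 and LRP10 rose by 0.54, while ATXN7, STARD7 and LRP12 were not called with all libraries. Their other listed relatives ATXN7L1 (-0.07), ATXN7L2 (-0.44), ATXN7L3 (-0.03), PCTP (-0.18) and LRP3 (0.31) were not called either. Of 26 further genes of repeat disorders, 25 were found and 19 tested, and 6 rose and 6 fell, with a median of 0.03. The called share of these was 63.2%, against the same 40.2%. VWA1, an extracellular matrix protein, fell by 0.96 (adjusted p = 0.000869, edgeR), RILPL1 by 0.55 and MARCH6 by 0.39, and HOXD13, the limb homeobox gene with an alanine repeat, rose by 0.44 (adjusted p = 0.00126, edgeR). On the spike-in scale 22 of the 32 tested paralogs and 9 of the 19 further genes fell, against 59% of all genes. None of either list rose there, against 0.304% of all genes.

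In relative abundance, genes that act on repeats or on their RNA changed in both directions. Of 19 modifiers of repeat instability, 18 were tested, and 3 rose and 5 fell, a called share of 44.4% near the 40.2% of all genes. Their median relative log2 ratio was -0.14. The mismatch repair gene MSH3 fell from 75.6 ± 4.76 to 47.6 ± 1.91 CPM (SD, n = 6 each), and the exonuclease EXO1 fell from 53.9 ± 2.01 to 30.4 ± 5.33 CPM. The DNA ligase LIG1 rose from 56.4 ± 3.26 to 107 ± 18.3 CPM, and RRM2B, a ribonucleotide reductase subunit, from 19.9 ± 3.67 to 44.5 ± 5.92 CPM. These 4 had adjusted p-values of 3.36e-07, 1.40e-06, 2.64e-07 and 2.89e-07 (edgeR). All 22 proteins known to bind repeat RNA were tested, and 10 rose and 3 fell, with a median of 0.20. Their called share was 59.1%, where 40.2% of all genes were called, 20% as higher and 20.2% as lower. MBNL1, the splicing factor sequestered by expanded CUG RNA, rose from 19.5 ± 1.34 to 39.2 ± 4.12 CPM (SD, n = 6 each), a relative log2 ratio of 1.00 (SE 0.09, adjusted p = 4.75e-08, edgeR). Its relative MBNL3 rose by 0.79 and the splicing factor SRSF6 by 0.72, while MID1, a ubiquitin ligase that binds CAG repeat RNA, fell by 0.50. On the spike-in scale 14 of the 18 tested modifiers and 9 of the 22 binding proteins fell, against 59% of all genes. None of either list rose there, against 0.304% of all genes. LIG1, RRM2B and MBNL1 stood at 0.12, 0.38 and 0.20 on that scale (adjusted p = 0.729, 0.283 and 0.578, edgeR).

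Across the 12 libraries, after each group mean was removed, the genes most like PABPN1 in log2 CPM were PRR3 (Pearson r = 0.995) and TFAM (0.984). Without SUPT4H1 replicate 6 the same pairs had r of 0.984 and 0.929 over 11 libraries. ATXN1 was most like ALG11 (0.938, or 0.841 without that library) and RBM28 (0.933, or 0.827), and SOX3 most like SRPRA (0.929, or 0.919) and DDX42 (0.909, or 0.880). These are descriptions over libraries that share 1 culture, chosen as the highest of all genes tested.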

How the data were processed

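QuantSeq 3′ libraries were made from 200 ng RNA each, per the labels' protocols, and the authors deposited their counts per gene as raw whole numbers. STAR, FastQC 0.11.5, MultiQC, R 3.4.3 and build GRCh38.p10 are named in the submitters' processing notes. Which counting tool, annotation release and strand setting were used is not given in the sources used here. Reads without molecular identifiers are not independent molecules.

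Counts of all genes that passed filterByExpr, 13820 in all, were fitted with edgeR 4.0.16 (R 4.3.3; robust quasi-likelihood test, 6 against 6 libraries) with TMM factors over endogenous genes. P-values were adjusted by Benjamini-Hochberg over all genes, with a threshold of 0.05. A second fit scaled libraries by summed counts of ERCC subgroup B, with subgroup membership taken from general knowledge of the product. Median log2 differences of subgroups A to D between the groups (-2.02, -0.01, 0.59 and 0.99) lay near the nominal -2, 0, 0.58 and 1. SE is the log2 fold change divided by the square root of the F statistic. CPM values are TMM-scaled. Counts of 3′ tags were not divided by length. Only the relative fit was tried on simulated data, with an outcome not given here, and the spike-in-scaled fit was not.

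The members, location classes and gene lists were chosen with earlier results of these data known, the classes from general knowledge. The text names every member, those called in either fit and HTT and C9orf72 by lowest, median and highest value, up to 4 called genes per other list by size of change, and for the 3 largest changes the 2 genes most alike. DESeq2 1.42.0, limma 3.58.1, other scalings, filters, covariates and left-out libraries were tried as alternatives. All 30 replicate pairs had counts that differed beyond sampling noise (chi-square over its degrees of freedom, 4.42 to 33.5).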

Additional observations from a re-analysis of the deposited data

Results flagged for a closer look

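In 9 of 54 sets of 6 libraries, each 1 repeat gene in 1 group, the highest or lowest library stood far from the rest: its gap to the nearest other, as a share of the whole range, was above 0.625. Chance alone gives about 1 in 20, or 2.7 sets, and the sets are not independent, since they share libraries. In 8 of the 9 the library was SUPT4H1 replicate 6. Such sets were not counted over all genes tested. PABPN1 had 152 CPM there against 44.8 to 56.7 CPM in the other treated libraries (ratio 0.889). SAMD12 had 6.87 against 2.03 to 3.09 CPM (0.780), ATN1 29.5 against 10.8 to 15.5 CPM (0.752) and FMR1 118 against 82.8 to 91.9 CPM (0.739). CNBP had 178 against 118 to 138 CPM (0.670), TCF4 91.5 against 66.5 to 75.4 CPM (0.646) and LRP12 24.4 against 12.6 to 16.9 CPM (0.638). ATXN10 was the only one of the 8 that lay lower there, with 101 against 130 to 147 CPM (0.627). The ninth set was ATN1 in the scrambled group, where replicate 2 had 17.1 CPM against 12.2 to 13.5 CPM in the others (0.736). That replicate 6 had the fewest endogenous counts, 6591194, and an RNA integrity number of 9.8; the part of either in these values was not tested.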

How the results depend on the processing

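Of 513 relative values of single genes under the alternatives, 456 kept direction and side of the threshold, 33 lost and 11 gained a call and 13 changed sign. Of 540 spike-in-scaled values, 442 kept both, 56 lost and 39 gained a call, and 3 changed sign. The sign changes were of values that had not passed the test: ATN1 (-0.0039 with RNA integrity as a covariate, -0.083 to 0.27 over left-out libraries), ATXN7 (-0.0055 with the replicate block, -0.051 to 0.063), DMPK (-0.093 to 0.055), SAMD12 (-0.17 to 0.25) and STARD7 (-0.0043 to 0.061), and on the spike-in scale PABPN1 (-0.34 with the covariate, -0.018 to 0.46 over left-out libraries) and SOX3 (0.085 with ERCC subgroup C). The count of repeat genes that rose in relative abundance, 5, was 3 with the replicate block, 2 with the integrity covariate and 3 to 6 over left-out libraries. The count that fell, 4, was 3 to 6. On the spike-in scale the count that fell, 14, was 22 with limma-voom, 26 with the integrity covariate, 3 with ERCC subgroup C and 8 to 25 over left-out libraries. Of all genes, 42 rose on that scale, with 96 without a filter, 27 with the covariate and 68 with subgroup C, and 8159 fell, with 12872, 2227 (covariate, subgroup C) and 5643 to 12306 over left-out libraries. The coding, UTR and intron medians were 0.025 to 0.15, 0.049 to 0.15 and 0.036 to 0.19 over left-out libraries, and the intron median was 0.030 with limma-voom. For each shift above the cause was not tested. No pairing by replicate number was seen: same-numbered libraries correlated at -0.32 to 0.06, and 0 of 12 correlated best with their own number. With 6 libraries per group this check could miss a weak pairing. With the replicate block 6 repeat genes were called in relative abundance, without RFC1, RUNX2 and AFF2. Repeat genes that rose on the spike-in scale stayed at 0 in each alternative run.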
